A study of Mus musculus with 20 samples.

Results

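The genes described here are 47 mouse genes of mitosis and the spindle. They were chosen by name, for what their products do in cell division, and found on the arrays as every probe carrying the gene's symbol or an older symbol of it (Cdk1 as Cdc2a, Ndc80 as Kntc2 and Nuf2 as Cdca1). All 47 had a probe, 79 of the 41174 probes in all. Of these genes, 45 had at least 1 probe that was well above background on 10 or more of the 20 arrays and were tested, while Ttk and Hmmr did not reach that level. Where a gene had several tested probes, the probe that was brightest on average over all arrays stands for it.

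RNA of the whole trachea was measured on 20 one-colour Agilent whole mouse genome arrays, 5 for each of 4 groups. The uninjured wild-type group held C57/Bl6 mice that received no polidocanol, and the uninjured Myd88KO group held untreated mice lacking Myd88, the adaptor through which most Toll-like receptors and the interleukin-1 receptor signal. The injured wild-type and injured Myd88KO groups received 2% polidocanol, a detergent that strips the tracheal surface epithelium, 3 days before collection. The labels give an age of 4 months for every mouse and intratracheal delivery, whereas the study's methods give a wider adult age range, both sexes and oropharyngeal delivery. The knockout line had been backcrossed to C57/Bl6JOlaHsd and was bred knockout to knockout, and wild-type mice came from a separate in-house colony, so genotype and colony cannot be told apart. The comparison asks how cell division genes in the trachea respond to injury and whether that response, or the resting level, differs without Myd88.

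Cells enter mitosis when cyclin B activates CDK1, after which Aurora and Polo-like kinases, kinesin motors and kinetochore proteins build the spindle and attach chromosomes to it. The spindle checkpoint holds cells until every chromosome is attached, and the anaphase-promoting complex then destroys cyclin B so that the chromosomes separate and the cell divides. Most of these genes are transcribed only around late S phase to mitosis, so their messenger RNA is widely used as a measure of dividing cells. In the trachea, basal and secretory cells divide to replace lost epithelium. In RNA from whole tissue, fewer dividing cells and less RNA in each cannot be told apart.

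Levels below are log2 signals minus the 75th percentile of all probes on the same array, so that 0 is that percentile, and they are not compared between probes. A gene was called where the limma fit over all 20 arrays gave an adjusted p under 0.01. Between 57.5% and 67.8% of spots on an array were well above background. The Myd88 probe was well above background on all 20 arrays, with medians of 2.08 in uninjured wild-type, 1.86 in uninjured Myd88KO, 2.67 in injured wild-type and 2.04 in injured Myd88KO tracheas. The sources used here do not say whether the knockout removes the stretch it binds, so it does not check the labels. The 4 groups shared every one of the 5 slides, with 1 array each, and the slide number is the replicate number used here.

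Before the results, 2 arrays that stand apart need naming. Uninjured wild-type replicate 3 was the highest of its group for 43 of 45 genes, all but Plk4 and Vrk1. On that array the summed level of the squamous epithelial keratins Krt4 and Krt13, both detected, was 289, against 5.83 to 12.2 on the other 4 arrays of its group, and that of the 4 basal cell markers (Krt5, Krt14, Trp63, Ngfr) was 243 against 59.6 to 72.2. Injured Myd88KO replicate 5 was the lowest of its group for all 45 genes and lay within or below the range of the uninjured Myd88KO arrays for 41. On that array Scgb3a2, a secretory cell marker, read 9.10, within the uninjured arrays (8.59 to 9.66) and above the other injured arrays (2.59 to 7.94), while Scgb3a1 lay between 8.23 and 9.44 on all 20 arrays and the Scgb1a1 spot was an outlier there. The summed level of 5 macrophage and monocyte markers, all detected, was 3.41 on it, against 3.41 to 20.9 over its group, 12.0 to 31.8 in injured wild-type, 3.82 to 6.5 in uninjured Myd88KO and 4.55 to 5.67 in uninjured wild-type tracheas. The squamous keratins summed to 5.86 to 12.0 in uninjured Myd88KO, 9.75 to 41.8 in injured wild-type and 9.38 to 32.5 in injured Myd88KO tracheas. The part of these cell type levels in the results was not tested, and results that rest on either array are given with and without both.

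After injury, mitosis and spindle genes stood higher in tracheas of both genotypes. Averaged over the 45 genes, the level in uninjured wild-type tracheas was −1.59, −1.74, −0.18, −1.83 and −1.32 on replicates 1 to 5, and after injury it was 0.58, 0.81, 1.20, 0.50 and 0.33. The uninjured Myd88KO tracheas averaged −1.44, −2.18, −2.20, −1.67 and −1.41, and the injured ones 0.24, 0.93, 0.18, 0.96 and −1.83. All 5 injured wild-type arrays lay above all 5 uninjured wild-type arrays. In Myd88KO, 4 injured arrays lay above all uninjured arrays, and replicate 5 lay among them.

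**Figure D1:**
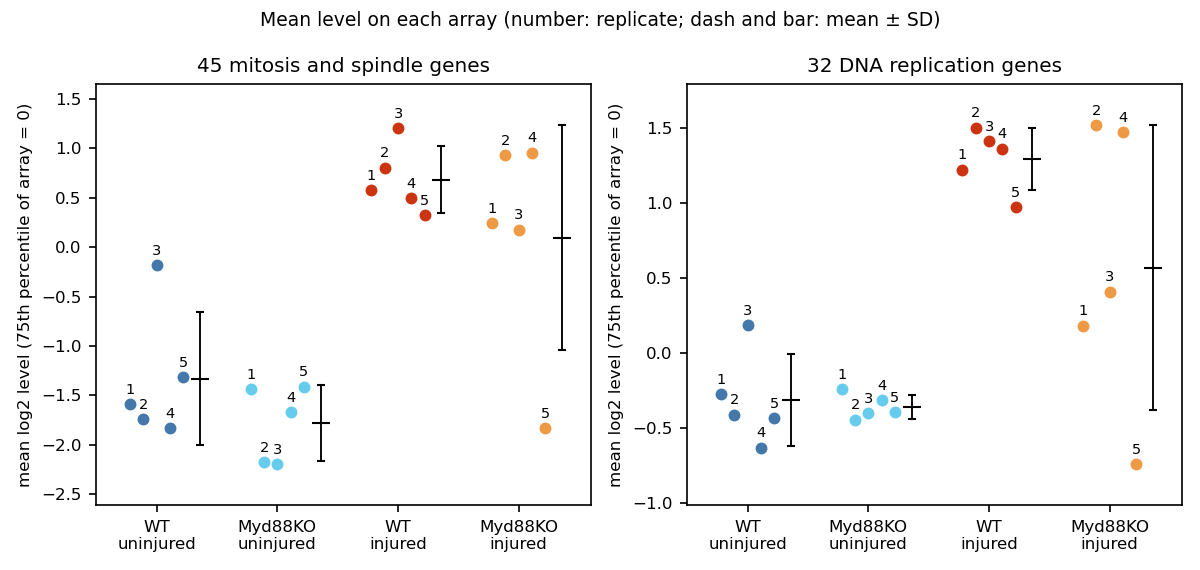
Mean log2 level (75th percentile of the array = 0) per array of the 45 mitosis and spindle genes tested and of 32 DNA replication genes, by group; each point is 1 array, labelled with its replicate number, and the dash and bar give the mean ± SD of the group. Uninjured wild-type replicate 3 at −0.18 and injured Myd88KO replicate 5 at −1.83 stand away from their groups in the mitosis genes.

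In wild-type tracheas, 29 of the 45 genes were called higher after injury, where 3.65% of all 17733 genes tested were called higher. None was called lower, where 2.32% of all genes were, and all 45 differences were positive. The median difference was 2.20 on the log2 scale, from 0.64 for Nek2 (1.55-fold) to 2.96 for Plk1 (7.77-fold), while the median over all genes tested was −0.00. An unadjusted p under 0.05 was reached by 43 genes, beside 27.9% of all genes. For 30 genes every injured array was above every uninjured array, which was so for 8.63% of all genes. In Myd88KO tracheas, 5 genes were called higher, Aurka, Plk4, Spag5, Ect2 and Nuf2, where 0.152% of all genes were called higher. None was called lower, where 0.293% of all genes were. All 45 differences were again positive, with a median of 1.86, from 0.79 for Stmn1 to 2.81 for Cdk1, beside a median of −0.09 over all genes. All 45 had an unadjusted p under 0.05, beside 21% of all genes. Every injured Myd88KO array was above every uninjured one for 4 genes, Aurka, Plk4, Spag5 and Ect2, beside 1.08% of all genes.

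Without the 2 arrays that stand apart, 40 genes were called in wild-type (4.68% of all genes) and 43 in Myd88KO tracheas (2.08% of all genes). The median differences were then 2.52 and 2.43. The genes not called in this fit were Anln, Cenpe, Cenpf, Mki67 and Nek2 in wild-type, and Mki67 and Nek2 in Myd88KO. Leaving out these arrays was decided after seeing the data. Leaving out any 1 array gave 11 to 37 called genes in wild-type, with 11 without uninjured wild-type replicate 2 or 4 and 37 without injured Myd88KO replicate 5. In Myd88KO it gave 0 to 43, with 0 without any 1 of the uninjured Myd88KO arrays or without injured replicate 2, 3 or 4, and 43 without injured replicate 5. With slide as a fixed block, 26 of the 29 genes called in wild-type stayed past the threshold, Ccna2, Kif4 and Ube2c did not, and Bub1b, Mad2l1 and Stmn1 passed it. In Myd88KO 4 of the 5 stayed, Nuf2 did not, and Cdk1 passed.

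**Figure D2:**
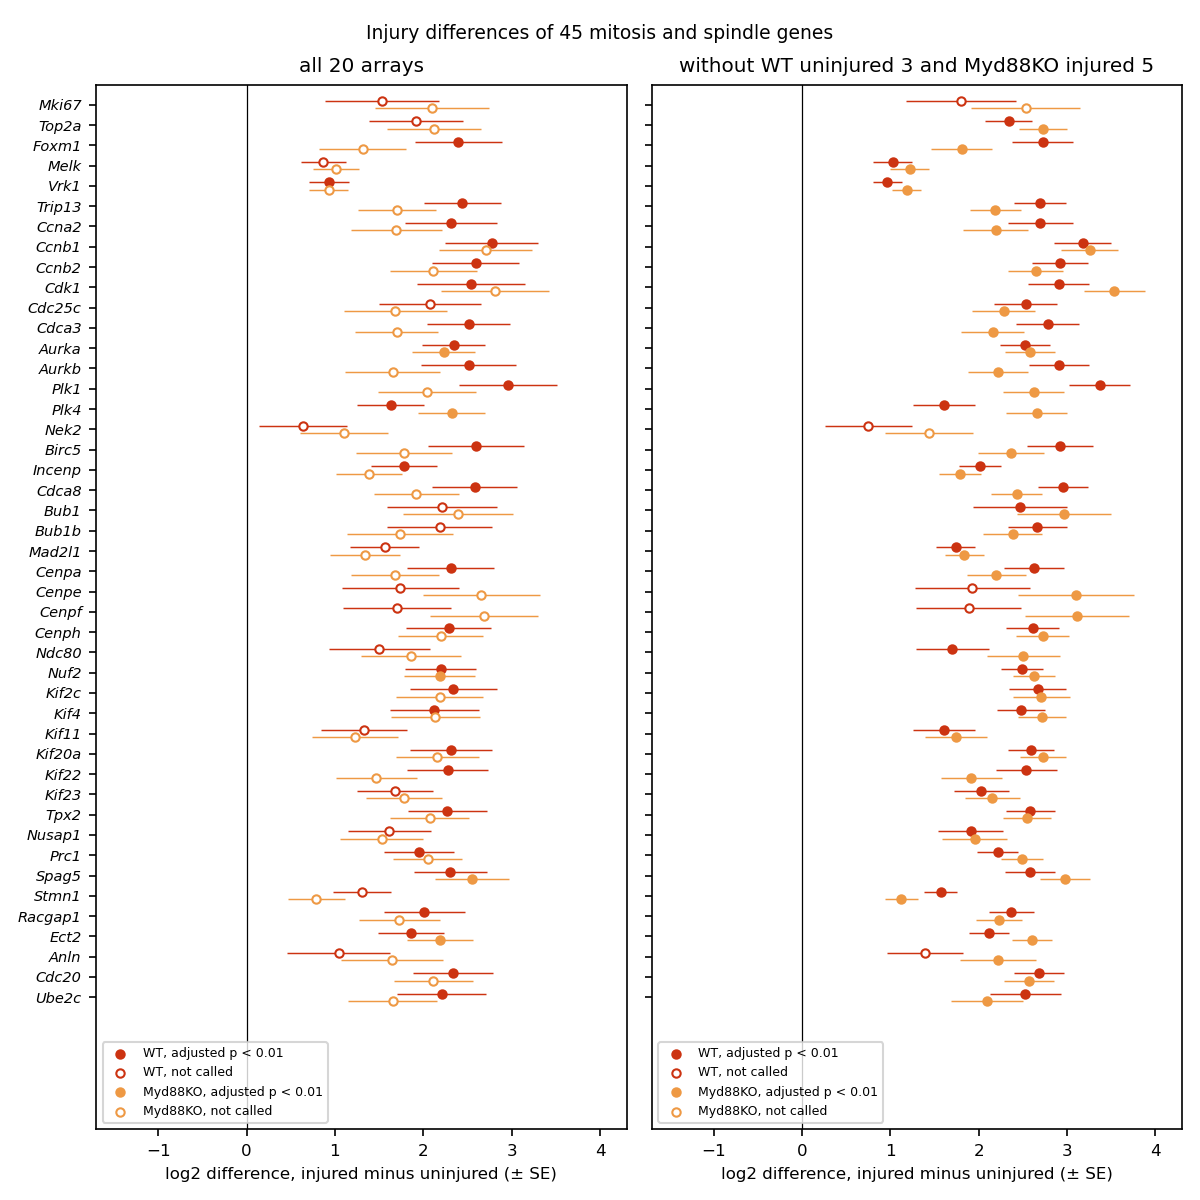
Log2 difference, injured minus uninjured, with its standard error for each of the 45 genes in wild-type and Myd88KO tracheas, from all 20 arrays and without the 2 arrays that stand apart; filled points had an adjusted p under 0.01. All 45 differences were above 0 in both genotypes and in both fits, and in Myd88KO the median moved from 1.86 to 2.43.

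Within slides, injured minus uninjured wild-type differed by 2.17, 2.55, 1.38, 2.33 and 1.64 for the mean of the 45 genes on slides 1 to 5. The same difference in Myd88KO was 1.68, 3.11, 2.38, 2.63 and −0.42. Slide 5, which holds the array that stands apart, was thus the only one of the 10 pairs with a lower mean after injury, and 9 of its 45 genes were higher. The arrays were scanned on 2 days, replicates 2, 3 and 4 on the first and replicates 1 and 5 on the second. The wild-type difference was 2.09 and 1.91 within these days, and the Myd88KO difference was 2.70 and 0.63.

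The promoters of a few of these genes show a feature that many of them share. Many genes of mitosis carry a cell cycle genes homology region (CHR, searched as TTTGAA or TTCGAA), which the DREAM and MuvB complexes use, and a CCAAT box (searched as CCAAT), which NF-Y binds, close to the start of transcription. Both were searched on both strands of RefSeq windows on GRCm38.p6 running from 250 bases before to 50 after a gene's start. The stretches below run from 100 bases before the start up to the start, 5′ to 3′ on the gene's strand, with the CHR (TTTGAA, or TTCAAA where it lies on the other strand) and the CCAAT box (CCAAT or ATTGG) in capitals. They show 5 genes that hold both motifs, and 2 whose windows hold neither.
Cdk1, chr10:69352913-69353012, minus strand: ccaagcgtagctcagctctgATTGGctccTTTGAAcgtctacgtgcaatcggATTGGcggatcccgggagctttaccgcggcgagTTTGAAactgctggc
Cdc20, chr4:118437344-118437443, minus strand: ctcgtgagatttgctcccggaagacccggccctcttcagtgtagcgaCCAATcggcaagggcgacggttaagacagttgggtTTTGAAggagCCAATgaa
Ube2c, chr2:164769829-164769928, plus strand: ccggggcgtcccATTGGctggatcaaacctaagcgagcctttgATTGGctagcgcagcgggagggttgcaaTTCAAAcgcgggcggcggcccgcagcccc
Kif11, chr19:37376282-37376381, plus strand: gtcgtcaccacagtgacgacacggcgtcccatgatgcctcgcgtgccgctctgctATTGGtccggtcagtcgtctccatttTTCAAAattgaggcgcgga
Kif22, chr7:127042421-127042520, minus strand: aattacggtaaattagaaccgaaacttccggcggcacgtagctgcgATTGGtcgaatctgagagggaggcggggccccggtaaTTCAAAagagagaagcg
Birc5, chr11:117849137-117849236, plus strand: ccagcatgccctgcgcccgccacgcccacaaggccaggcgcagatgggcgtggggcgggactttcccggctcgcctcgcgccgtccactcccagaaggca
Plk4, chr3:40799851-40799950, plus strand: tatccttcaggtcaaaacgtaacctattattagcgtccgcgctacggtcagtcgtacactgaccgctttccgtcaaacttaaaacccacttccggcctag

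The CHR nearest the start begins at base −15 in Cdk1, −18 in Cdc20, −29 in Ube2c, −19 in Kif11 and −17 in Kif22, counted back from the start. RefSeq promoters were at hand for 39 of the 47 genes, with 44 windows, since some genes have more than 1 start. A CHR was in 33 of the 44 windows (75%), against 19.2% of all 32851 windows of this length. A CCAAT box was in 31 (70.5%, against 37.4%) and both motifs in 26 (59.1%, against 7.52%). A CHR between 100 bases before and 30 after the start was in 26 windows (59.1%), against 7.91% of all windows. Among 65 windows of other mitosis genes 63.1% held a CHR, 67.7% a CCAAT box and 47.7% both. Among 31 windows of DNA replication genes, 16.1% held a CHR and 54.8% a CCAAT box, and among 15 of CDK inhibitor and quiescence genes 13.3% and 53.3% did. The 6 windows with neither motif belonged to Birc5, Plk4, Melk, Nusap1, Nuf2 and Mad2l1. Among these, Birc5, Plk4 and Nuf2 were called after injury in wild-type, while Melk, Nusap1 and Mad2l1 were not, beside 29 of all 45 genes tested. Without the 2 arrays that stand apart, Melk, Nusap1 and Mad2l1 were called as well (adjusted p = 0.00461, 0.00222 and 5.31e-05, limma). A link between motifs and calls was not tested. A match is a description of the letters in the window and not a measured binding site.

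**Figure D3:**
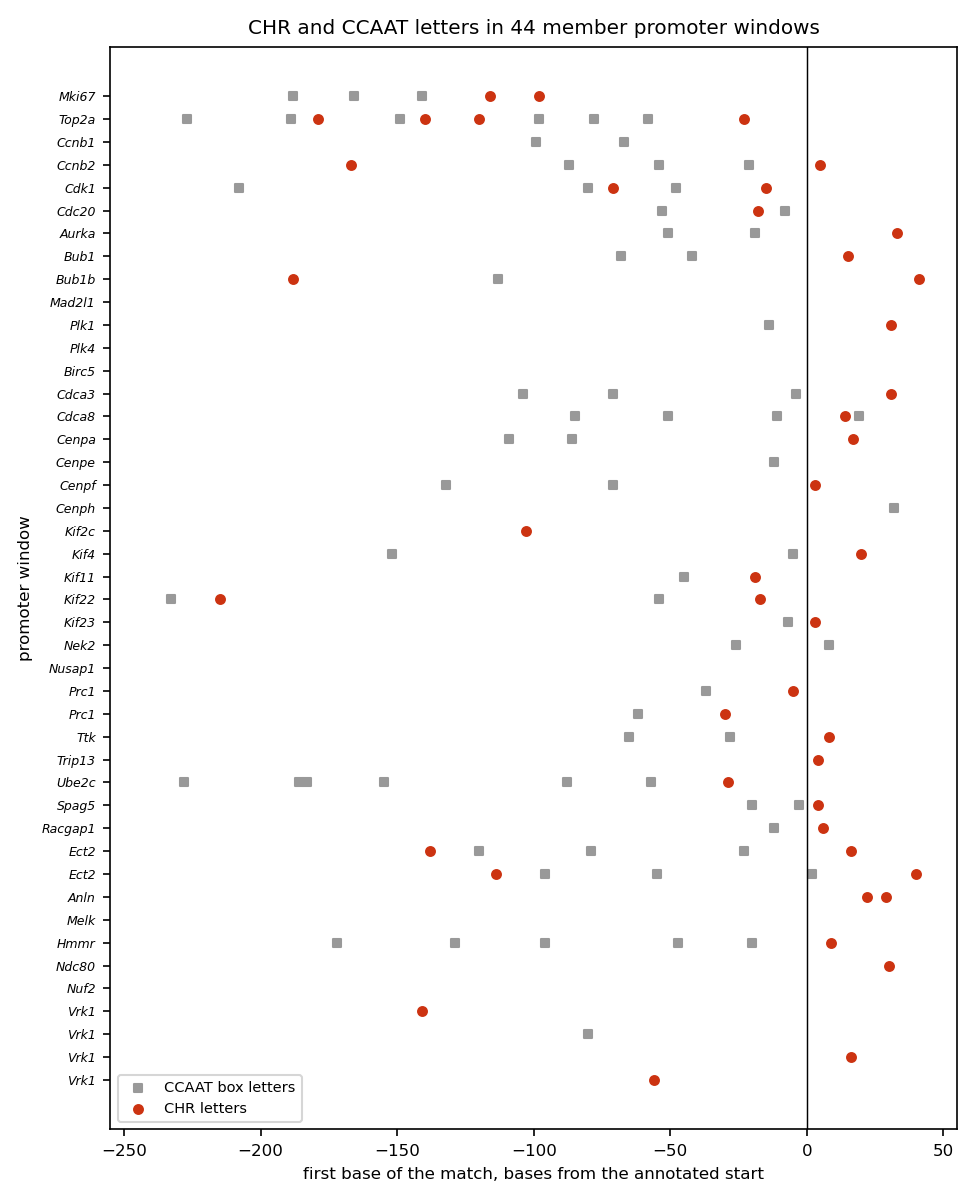
Positions of CHR and CCAAT matches in the 44 promoter windows, as distance in bases from the start of transcription, 1 row per window. Most windows hold a CHR, and 26 of the 44 hold one between 100 bases before and 30 after the start.

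Of the 6 proliferation, chromatin and transcription genes, 3 were called higher after injury in wild-type, Foxm1, Trip13 and Vrk1, and none was in Myd88KO. Mki67, which encodes the Ki-67 protein that coats mitotic chromosomes, had a level of 0.40, 0.26, 2.00, 0.59 and 1.43 in uninjured wild-type and 0.74, −0.95, −1.27, 0.79 and 0.68 in uninjured Myd88KO tracheas. After injury it read 3.32, 1.40, 3.66, 0.51 and 3.44 in wild-type and 1.82, 2.37, 2.46, 3.45 and 0.37 in Myd88KO. Replicates 2 and 4 of injured wild-type lay below the highest uninjured wild-type array, and the difference was 1.53 ± 0.64 (SE, adjusted p = 0.129, limma) in wild-type and 2.10 ± 0.64 (adjusted p = 0.0779) in Myd88KO. Top2a, the topoisomerase that untangles sister chromatids, read −3.89, −3.37, −1.29, −3.40 and −2.96 in uninjured wild-type and −1.03, −1.01, −0.52, −1.73 and −1.04 after injury. In Myd88KO, Top2a read −3.15, −3.81, −4.13, −3.10 and −3.39 before and −1.25, −0.66, −0.93, −0.33 and −3.82 after injury. Uninjured wild-type replicate 3 exceeded 1 injured array, and injured Myd88KO replicate 5 lay among the uninjured arrays, while the other 4 injured Myd88KO arrays were above them all. Its differences were 1.92 ± 0.53 SE in wild-type and 2.12 ± 0.53 in Myd88KO (adjusted p = 0.0228 and 0.035). A second, dimmer Top2a probe rose by 2.52 ± 0.48 in wild-type (adjusted p = 0.00242) and differed by 2.26 ± 0.48 in Myd88KO (adjusted p = 0.0186). That probe was well above background on 10 arrays, the fewest the filter allows. Of the uninjured arrays these were 1 of 5 in wild-type and none in Myd88KO, and of the injured arrays 5 and 4 of 5. It thus passed the filter mainly on injured arrays, so its call is not separate support.

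Foxm1, the transcription factor that drives many G2 and mitosis genes, read −2.49, −3.08, −1.01, −3.05 and −2.0 in uninjured and 0.04, 0.47, 0.20, 0.07 and −0.42 in injured wild-type tracheas. Readings in Myd88KO were −2.41, −2.73, −2.53, −2.49 and −2.16 before and −1.88, 0.27, −1.0, −0.03 and −3.12 after injury. Foxm1 rose 5.26-fold in wild-type without overlap of the groups (2.40 ± 0.49 SE, adjusted p = 0.00384), and in Myd88KO replicates 2 and 4 reached the wild-type range while replicates 1 and 3 lay between the uninjured arrays and that range (1.31 ± 0.49, adjusted p = 0.148). Trip13, an ATPase that takes spindle checkpoint complexes apart, rose by 2.44 in wild-type, and Vrk1, a kinase of chromatin, rose by 0.93. Melk, a kinase of dividing cells, differed by 0.87 (adjusted p = 0.0325).

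Among the cyclins, CDK1 and its activators, 5 of 6 genes were called in wild-type, Ccna2, Ccnb1, Ccnb2, Cdk1 and Cdca3, and none in Myd88KO. Ccnb1, the cyclin B that activates CDK1, read −2.53, −2.87, −0.59, −3.02 and −2.02 in uninjured wild-type and 0.33, 1.00, 0.95, 0.67 and −0.11 in injured wild-type tracheas. The Myd88KO tracheas gave −2.62, −3.24, −3.49, −2.66 and −2.26 before and 0.07, 1.05, −0.36, 0.85 and −2.34 after injury. Ccnb1 rose 6.83-fold in wild-type with no overlap (2.77 ± 0.53 SE, adjusted p = 0.00235), and the Myd88KO difference of 2.71 ± 0.53 had an adjusted p of 0.0114. Cdk1, the kinase that starts mitosis, read −2.96, −2.32, −1.06, −2.88 and −3.35 in uninjured and −0.75, 0.76, 0.57, 0.70 and −1.15 in injured wild-type tracheas. In Myd88KO, Cdk1 read −2.97, −3.01, −3.17, −2.62 and −3.47 before and 0.66, 0.63, 0.19, 0.47 and −3.13 after injury. It rose 5.82-fold in wild-type (adjusted p = 0.00964), although injured replicate 5 was below uninjured replicate 3. The Cdk1 difference of 2.81 ± 0.61 in Myd88KO was the highest of the 45 genes there (adjusted p = 0.0196, or 0.00734 with slide as a block), with 4 arrays between 0.19 and 0.66 and replicate 5 at the uninjured level. Ccna2, Ccnb2 and Cdca3 rose by 2.32, 2.59 and 2.51 in wild-type, and with slide as a block the adjusted p of Ccna2 went from 0.00647 to 0.0111. Cdc25c, the phosphatase that removes the inhibitory phosphates from CDK1, was well above background on 1 of 5 uninjured wild-type and on no uninjured Myd88KO array. It was detected on 5 of 5 and 4 of 5 injured arrays, and in Myd88KO it was at least 2.04-fold higher after injury (means −3.99 and −5.67, adjusted p = 0.117). This lower bound takes, for each uninjured array, the dimmest signal counted as well above background, or the Cdc25c signal itself where that was brighter.

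Of the 5 mitotic kinases tested, Aurka, Aurkb, Plk1 and Plk4 were called in wild-type, and Aurka and Plk4 also in Myd88KO. Aurka, which acts at spindle poles, read 0.32, 0.72, 1.38, 0.33 and 0.61 in uninjured and 2.62, 3.39, 3.27, 3.48 and 2.33 in injured wild-type tracheas. Across the Myd88KO arrays it measured 0.87, 0.34, 0.09, 0.18 and 0.69 before and 3.64, 3.27, 2.19, 2.97 and 1.29 after injury. No injured array of either genotype overlapped the uninjured arrays of that genotype, replicate 5 of Myd88KO included. Aurka rose 5.07-fold in wild-type (2.34 ± 0.36 SE, adjusted p = 0.000568) and 4.70-fold in Myd88KO (2.23 ± 0.36, adjusted p = 0.00516). Aurkb, the kinase of the chromosomal passenger complex, read −3.23, −4.07, −1.63, −4.30 and −2.76 in uninjured and −0.43, −0.62, −0.38, −0.92 and −1.07 in injured wild-type tracheas. In Myd88KO, Aurkb read −2.70, −3.82, −3.73, −3.32 and −3.06 before and −1.63, −0.50, −1.75, −0.55 and −3.92 after injury. It rose by 2.52 ± 0.54 in wild-type (adjusted p = 0.0049) and differed by 1.66 ± 0.54 in Myd88KO (adjusted p = 0.0944), where 4 of 5 injured arrays were above all uninjured ones.

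Plk1, the Polo-like kinase that acts from mitotic entry to cytokinesis, read −0.64, −1.1, 1.41, −0.79 and −0.05 in uninjured and 2.52, 3.19, 2.96, 2.93 and 2.02 in injured wild-type tracheas. Myd88KO levels were −0.26, −0.72, −0.55, −0.41 and −0.21 before and 1.34, 3.09, 1.45, 2.89 and −0.71 after injury. It rose 7.77-fold in wild-type (2.96 ± 0.55 SE, adjusted p = 0.00208), the highest of the 45 genes, and differed by 2.04 ± 0.55 in Myd88KO (adjusted p = 0.0487). Plk4, which starts centriole duplication, read −4.0, −4.11, −4.45, −4.93 and −4.26 in uninjured and −3.46, −2.23, −2.11, −2.41 and −3.37 in injured wild-type tracheas. In Myd88KO, Plk4 read −4.44, −5.14, −4.69, −4.65 and −5.06 before and −1.20, −2.67, −1.81, −2.89 and −3.80 after injury. The groups did not overlap in either genotype, and Plk4 rose by 1.63 ± 0.38 in wild-type (adjusted p = 0.00813) and by 2.32 ± 0.38 in Myd88KO (adjusted p = 0.00524). Its probe was well above background on 3 and 2 of 5 uninjured wild-type and Myd88KO arrays, and on all 10 injured arrays.

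Nek2, a kinase that separates the centrosomes, read −0.75, −0.59, −0.29, −0.63 and −1.53 in uninjured and −1.61, 0.95, 0.63, 1.02 and −1.60 in injured wild-type tracheas. For Myd88KO the levels were −0.95, −1.12, −0.99, −0.56 and −1.26 before and 1.21, 0.34, 0.38, −0.07 and −1.22 after injury. Injured wild-type replicates 1 and 5 were below every uninjured wild-type array while replicates 2, 3 and 4 were above them all. This split follows the scan day, as the mean of injured wild-type arrays was 0.87 on the first day and −1.60 on the second. Uninjured wild-type, uninjured Myd88KO and injured Myd88KO means were also lower on the second day, with differences of −0.63, −0.22 and −0.22. The summed level of 4 ciliated cell markers (Foxj1, Dnah5, Rsph1, Dnaic1) split the injured wild-type arrays in the same way. It was 1.65 and 2.02 on replicates 1 and 5, and 15.5, 14.2 and 28.2 on replicates 2, 3 and 4. In injured Myd88KO it was 59.4, 5.34, 15.5, 1.66 and 18.9 on replicates 1 to 5, where Nek2 was lowest on replicate 5. The parts of scan day and of ciliated cells were not tested. The injury difference of Nek2 was 0.64 ± 0.50 in wild-type (adjusted p = 0.452) and 1.1 ± 0.50 in Myd88KO (adjusted p = 0.232). Ttk, the checkpoint kinase also known as Mps1, was not tested. Its probe was well above background on no uninjured array, on 2 injured wild-type and on 3 injured Myd88KO arrays.

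All 3 partners of Aurora B in the chromosomal passenger complex, Birc5, Incenp and Cdca8, were called in wild-type and none in Myd88KO. Birc5, which encodes survivin, read 1.30, 0.84, 2.73, 0.68 and 1.68 in uninjured and 4.03, 4.06, 4.48, 4.02 and 3.61 in injured wild-type tracheas. Readings in Myd88KO were 1.66, 0.30, 0.61, 0.96 and 1.47 before and 2.42, 4.34, 2.67, 4.02 and 0.45 after injury. Birc5 rose 6.04-fold in wild-type (2.60 ± 0.54 SE, adjusted p = 0.00439), and in Myd88KO replicates 2 and 4 were within the injured wild-type range, replicates 1 and 3 between the uninjured and that range, and replicate 5 at the uninjured level (1.78 ± 0.54, adjusted p = 0.0772). Incenp and Cdca8 rose by 1.78 and 2.58 in wild-type.

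**Figure D4:**
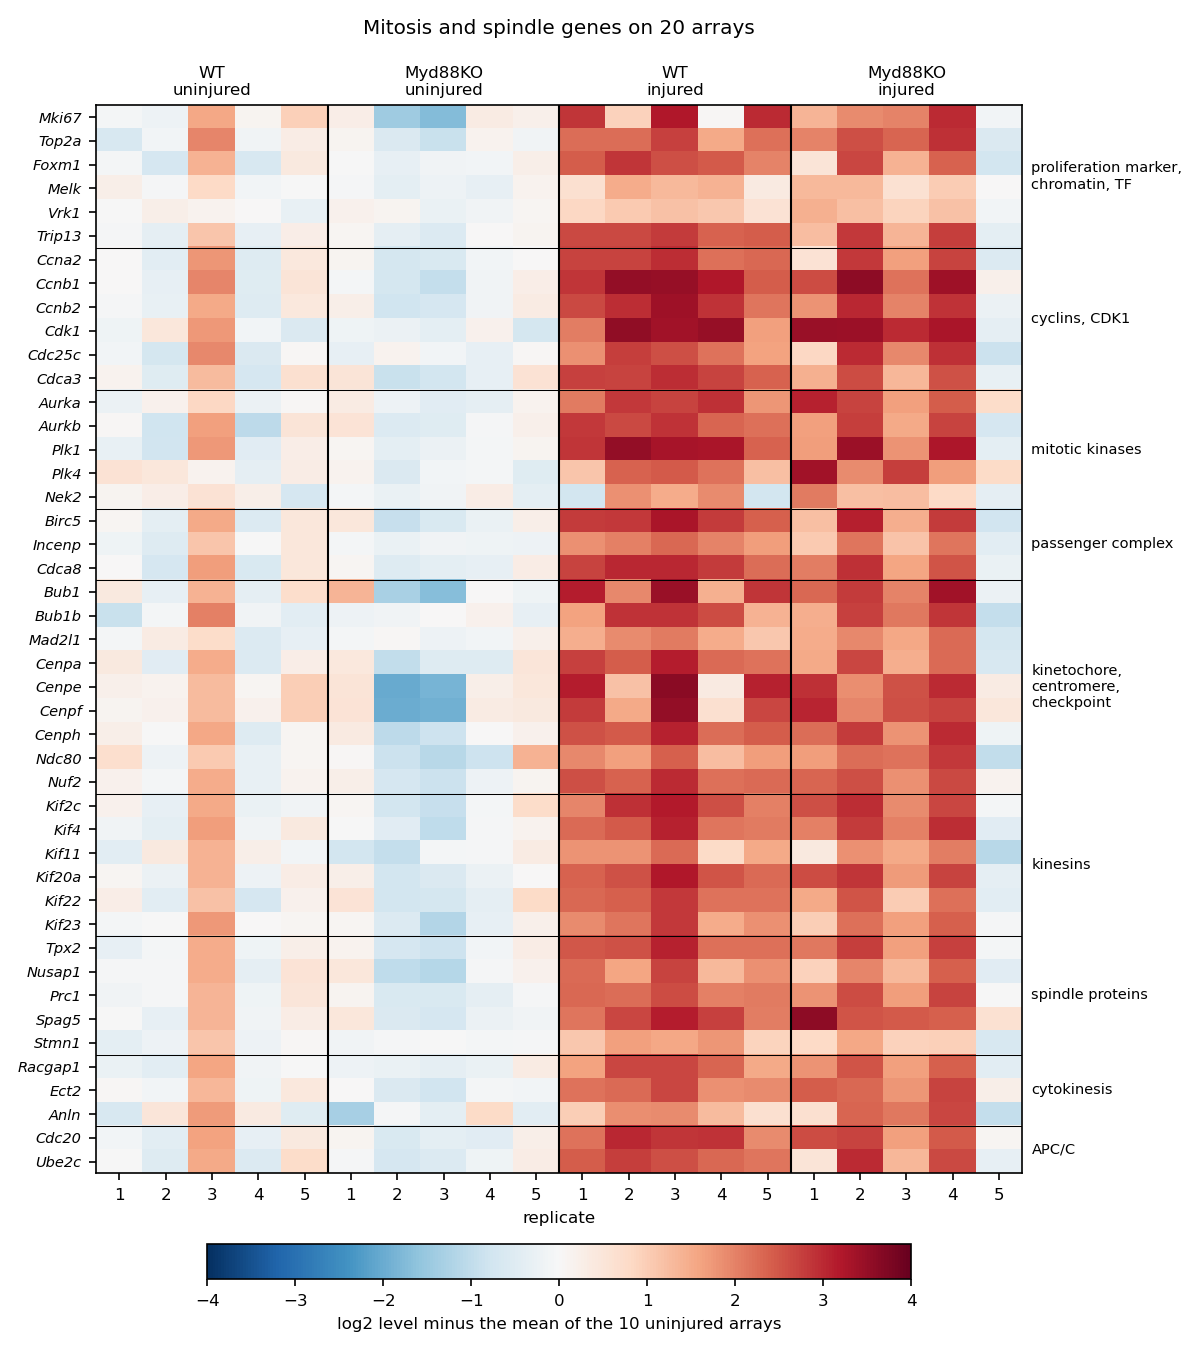
Log2 level of each of the 45 genes on each of the 20 arrays, minus the gene's mean over the 10 uninjured arrays, with genes ordered by role and arrays by group. Injured arrays are above the uninjured mean for most genes except injured Myd88KO replicate 5, and uninjured wild-type replicate 3 is above the other uninjured arrays.

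Of 9 kinetochore, centromere and checkpoint genes, Cenpa, Cenph and Nuf2 were called in wild-type, and Nuf2 in Myd88KO. Bub1b, which encodes the checkpoint protein BubR1, read −3.63, −2.80, −0.72, −2.87 and −3.14 in uninjured and −1.12, 0.17, 0.16, −0.12 and −1.33 in injured wild-type tracheas. The Myd88KO tracheas gave −2.93, −2.87, −2.73, −2.56 and −3.06 before and −1.29, −0.01, −0.62, 0.13 and −3.68 after injury. Uninjured wild-type replicate 3 was above 2 injured wild-type arrays, and the difference of 2.18 ± 0.60 SE had an adjusted p of 0.021, or 0.00683 with slide as a block. Mad2l1, another checkpoint protein, differed by 1.56 in wild-type (adjusted p = 0.0136, or 0.00989 with the block). Cenpa, the histone H3 variant of centromeres, read −1.65, −2.47, −0.53, −2.58 and −1.76 in uninjured and 0.70, 0.39, 1.1, 0.22 and 0.13 in injured wild-type tracheas. In Myd88KO, Cenpa read −1.62, −3.02, −2.55, −2.54 and −1.55 before and −0.51, 0.63, −0.58, 0.22 and −2.65 after injury. It rose by 2.31 ± 0.49 in wild-type (adjusted p = 0.00495) without overlap, and the Myd88KO difference was 1.68 ± 0.49 (adjusted p = 0.067). Nuf2, a subunit of the Ndc80 complex that binds microtubules, rose by 2.20 in wild-type (adjusted p = 0.00198) and by 2.18 in Myd88KO (adjusted p = 0.00914, or 0.0129 with slide as a block). Ndc80, its partner, was well above background on 1 of 5 uninjured arrays in each genotype and on 5 and 4 of 5 injured arrays. It differed by 1.5 in wild-type (adjusted p = 0.0908) and 1.86 in Myd88KO (adjusted p = 0.077).

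Cenpe, a kinesin that moves chromosomes to the spindle equator, read −0.27, −0.35, 0.79, −0.40 and 0.49 in uninjured and 2.67, 0.70, 3.13, −0.13 and 2.60 in injured wild-type tracheas. Across the Myd88KO arrays it measured 0.04, −2.49, −2.35, −0.25 and −0.03 before and 2.43, 1.36, 2.07, 2.49 and −0.15 after injury. Injured wild-type replicates 2 and 4 stayed below the highest uninjured array, and uninjured Myd88KO replicates 2 and 3 were far below the other 3. Cenpf, a kinetochore protein of late G2, read −1.54, −1.47, −0.36, −1.47 and −0.65 in uninjured and 1.17, −0.11, 1.89, −0.98 and 1.05 in injured wild-type tracheas. In Myd88KO, Cenpf read −1.09, −3.63, −3.57, −1.30 and −1.25 before and 1.43, 0.32, 0.95, 1.08 and −1.17 after injury. The same arrays were low for Cenpf, Cenpe and Mki67, namely replicates 2 and 4 of injured wild-type and 2 and 3 of uninjured Myd88KO, and no test was made of this pattern. Injury differences were 1.74 ± 0.66 SE for Cenpe and 1.70 ± 0.61 for Cenpf in wild-type (adjusted p = 0.0926 and 0.0733). In Myd88KO they were 2.65 ± 0.66 and 2.69 ± 0.61 (adjusted p = 0.034 and 0.0238).

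**Figure D5:**
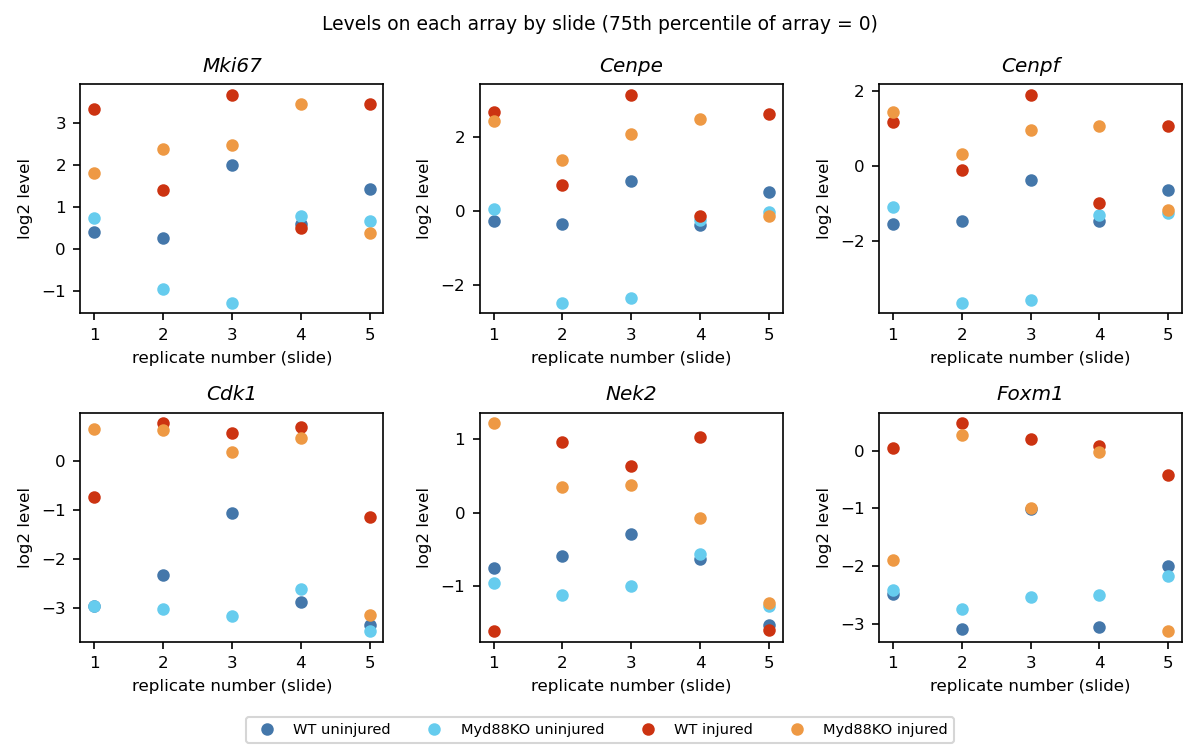
Log2 level on each array of Mki67, Cenpe, Cenpf, Cdk1, Nek2 and Foxm1 against slide number, which is the replicate number; colours mark the 4 groups. Nek2 in injured wild-type tracheas is at −1.61 and −1.60 on slides 1 and 5, scanned on the second day, and between 0.63 and 1.02 on the other 3.

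Of the 6 kinesin motors, Kif2c, Kif4, Kif20a and Kif22 rose in wild-type, by 2.34, 2.13, 2.31 and 2.27, and none was called in Myd88KO. With slide as a block the adjusted p of Kif4 in wild-type went from 0.00875 to 0.0135. Kif11, the motor that pushes spindle poles apart, read −4.92, −4.09, −3.10, −4.27 and −4.61 in uninjured and −2.69, −2.71, −2.24, −3.72 and −2.97 in injured wild-type tracheas. In Myd88KO it read −5.22, −5.45, −4.56, −4.55 and −4.17 before and −4.09, −2.67, −2.97, −2.44 and −5.61 after injury. Uninjured wild-type replicate 3 was above injured replicate 4, and the differences were 1.33 ± 0.49 SE in wild-type (adjusted p = 0.0803) and 1.23 ± 0.49 in Myd88KO (adjusted p = 0.171). The Kif11 probe was well above background on 3 and 2 of 5 uninjured wild-type and Myd88KO arrays and on 5 and 4 of 5 injured ones. Kif23, the motor of the central spindle, differed by 1.68 in wild-type (adjusted p = 0.0145).

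Of the 5 spindle and microtubule proteins tested, Tpx2, Prc1 and Spag5 were called in wild-type and Spag5 in Myd88KO. Tpx2, which activates Aurora A and nucleates microtubules, read −2.59, −2.35, −0.80, −2.44 and −2.03 in uninjured and 0.22, 0.29, 0.80, −0.08 and −0.07 in injured wild-type tracheas. In Myd88KO it read −2.12, −2.93, −3.10, −2.38 and −1.97 before and −0.15, 0.51, −0.62, 0.46 and −2.35 after injury. Tpx2 rose 4.83-fold in wild-type without overlap (2.27 ± 0.44 SE, adjusted p = 0.00265), and its Myd88KO difference was 2.07 ± 0.44 (adjusted p = 0.0186). Spag5, or astrin, rose by 2.30 in wild-type and by 2.55 in Myd88KO (adjusted p = 0.00167 and 0.0052), and Prc1, which bundles the central spindle, rose by 1.95 in wild-type. Stmn1, which destabilises microtubules, differed by 1.31 in wild-type (adjusted p = 0.012, or 0.00843 with slide as a block) and 0.79 in Myd88KO (adjusted p = 0.188). Hmmr, a spindle assembly factor, was not tested. It was well above background on 1 of 10 uninjured and 7 of 10 injured arrays.

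Of 3 cytokinesis genes, Racgap1 and Ect2 rose in wild-type, by 2.01 and 1.86, and Ect2 also rose in Myd88KO, by 2.19 (adjusted p = 0.00643). Their products together switch on RhoA at the division plane. Anln, the scaffold of the contractile ring, was the only gene with 1 tested probe called after injury and another with an unadjusted p over 0.05 (0.0892 in wild-type), of 14 genes with more than 1 tested probe. In Top2a, Kif4, Mad2l1, Plk4 and Vrk1 the probes fell on either side of the threshold in wild-type with differences of the same sign. The brighter probe read −5.25, −4.13, −2.93, −4.26 and −5.09 in uninjured and −3.63, −2.75, −2.72, −3.37 and −3.98 in injured wild-type tracheas, with overlap between groups (1.04 ± 0.58 SE, adjusted p = 0.27). The other probe read −5.69, −6.29, −4.80, −6.02 and −5.15 in uninjured and −2.97, −3.90, −3.24, −4.09 and −3.43 in injured wild-type tracheas, without overlap (2.06 ± 0.46, adjusted p = 0.00629). That probe was dim before injury and may have passed the filter mainly on injured arrays, so its call is not separate support. In Myd88KO the brighter probe read −5.94, −4.68, −5.0, −3.87 and −5.06 before and −3.98, −2.29, −2.52, −1.96 and −5.58 after injury, and the injury differences of the probes were 1.65 and 1.73 there (adjusted p = 0.125 and 0.0458). The dimmer probe read −5.44, −6.92, −5.98, −7.21 and −4.79 in uninjured and −4.64, −3.52, −4.19, −3.56 and −5.77 in injured Myd88KO tracheas. On the array annotation, whose genome build is not stated, the brighter probe spans chromosome 9 from 22212935 to 22216751 and the other 22252004 to 22252063.

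Both listed genes that act with the anaphase-promoting complex, Cdc20 and Ube2c, were called in wild-type and neither in Myd88KO. Cdc20, its activator in mitosis, read 1.77, 1.45, 3.49, 1.54 and 2.28 in uninjured and 4.05, 4.91, 4.74, 4.76 and 3.76 in injured wild-type tracheas. In Myd88KO it read 1.99, 1.27, 1.49, 1.42 and 2.13 before and 4.49, 4.57, 3.51, 4.35 and 1.95 after injury. Cdc20 rose 5.05-fold in wild-type without overlap (2.34 ± 0.45 SE, adjusted p = 0.00245), and the Myd88KO difference of 2.12 ± 0.45 had an adjusted p of 0.0177. Ube2c, the ubiquitin-conjugating enzyme of the complex, read −0.67, −1.15, 0.86, −1.18 and 0.08 in uninjured and 1.77, 2.14, 1.93, 1.65 and 1.49 in injured wild-type tracheas. In Myd88KO, Ube2c read −0.70, −1.30, −1.20, −0.81 and −0.34 before and −0.14, 2.34, 0.67, 2.01 and −0.97 after injury. It rose 4.62-fold in wild-type (2.21 ± 0.50, adjusted p = 0.00715, or 0.0139 with slide as a block), and in Myd88KO replicates 1, 3 and 5 were below every injured wild-type array.

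In uninjured tracheas, no mitosis or spindle gene was called between Myd88KO and wild-type, where 0.338% of all genes were called in either direction. None had an unadjusted p under 0.05, where 6.11% of all genes did. All 45 differences were negative, with a median of −0.46, from −1.07 for Cenpf and Cenpe to −0.02 for Vrk1, while the median over all genes was 0.05. The smallest adjusted p was 1.00 (limma). Without uninjured wild-type replicate 3 and injured Myd88KO replicate 5 the median was −0.14 and 11 of the 45 differences were positive. Within slides, Myd88KO minus wild-type for the mean of the genes was 0.15, −0.44, −2.02, 0.16 and −0.09 on slides 1 to 5, and slide 3 holds the wild-type array that stands apart. Within the 2 scan days the difference was −0.76 and 0.03.

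In injured tracheas, again no gene was called between genotypes, where 0.338% of all genes were. An unadjusted p under 0.05 was reached by 7 of 45 genes, beside 13% of all genes. They were Birc5, Foxm1, Cdca3, Ccna2, Cenpa, Kif22 and Trip13, all lower in Myd88KO. The largest differences were −1.26 ± 0.54 SE for Birc5 (adjusted p = 0.338) and −1.22 ± 0.49 for Foxm1 (adjusted p = 0.297). Nek2 and Plk4 were higher in Myd88KO by 0.25 each (adjusted p = 0.884 and 0.839) and Anln by 0.02, and the other 42 were lower, with a median of −0.62 beside −0.04 over all genes. Without the 2 arrays that stand apart the median was −0.09, 17 differences were positive and Foxm1 was at −0.73 ± 0.35 (adjusted p = 0.469). Within slides the mean of the genes differed by −0.34, 0.13, −1.03, 0.46 and −2.16, and slide 5 holds the Myd88KO array that stands apart. Within the scan days it differed by −0.15 and −1.25.

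The difference between the injury responses was tested as an interaction, Myd88KO response minus wild-type response. No gene was called, where 0% of all genes were, and none of the 45 had an unadjusted p under 0.05, where 10.8% of all genes did. The median was −0.11, as over all genes, and 16 of the 45 values were positive. Cenpf (0.99 ± 0.86 SE) and Cenpe (0.91 ± 0.94) were the most positive, and Foxm1 (−1.08 ± 0.69) and Plk1 (−0.92 ± 0.78) the most negative, with adjusted p between 0.581 and 0.74. Without the 2 arrays the median was 0.08 and 26 values were positive. The calls in 1 genotype and not in the other are therefore not a tested difference in response. The standard errors of single interactions, from 0.31 to 0.94, limit what differences these arrays could show.

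The other genes of the cell cycle were counted from lists. Of all genes tested, 3.65% were called higher after injury in wild-type and 0.152% in Myd88KO. Without the 2 arrays that stand apart these shares were 4.68% and 2.08%. Of 65 other mitosis genes tested, 31 were called higher after injury in wild-type and none lower, with a median of 1.64, and 2 were called in Myd88KO, with a median of 1.55. Without the 2 arrays that stand apart these counts were 47 and 45, with medians of 1.87 and 1.94. The largest among those called in wild-type were Gtse1, a microtubule-binding protein of G2 (2.82), and Knstrn, a kinetochore partner of Spag5 (2.58). Of 32 DNA replication genes tested, 20 were called higher in wild-type, with a median of 1.63, led by Mcm10, a factor that starts replication forks (2.73), and Ccne1, the cyclin E of S phase entry (2.52). In Myd88KO none of the 32 was called, 24 had an unadjusted p under 0.05 beside 21% of all genes, and the median was 0.90. Without the 2 arrays 27 replication genes were called in wild-type and 15 in Myd88KO, with medians of 1.71 and 1.23. Between injured genotypes all 32 replication genes were lower in Myd88KO and none was called, with a median of −0.65. An unadjusted p under 0.05 was reached by 17 of them, beside 13% of all genes, and their interaction median was −0.61. Without the 2 arrays 29 of the 32 were lower in injured Myd88KO, 10 genes had an unadjusted p under 0.05 beside 10.8% of all genes, none was called, and the medians were −0.39 between injured genotypes and −0.44 for the interaction. The mean level of replication genes was 1.22, 1.5, 1.41, 1.36 and 0.97 on injured wild-type and 0.18, 1.52, 0.41, 1.47 and −0.74 on injured Myd88KO arrays. Replicates 2 and 4 of injured Myd88KO lay with or above injured wild-type, and replicates 1, 3 and 5 were below all of it. Scgb3a2 read 7.94, 5.52 and 9.10 on those 3 arrays and 3.07 and 3.21 on replicates 2 and 4. The macrophage and monocyte markers summed to 7.07, 6.73 and 3.41 on replicates 1, 3 and 5, and to 20.9 and 20.1 on 2 and 4. In the same order, the 3 neutrophil markers tested summed to 2.18, 0.774 and 0.407, against 16.9 and 40.7. The 4 basal cell markers summed to 63.8, 98.8 and 88.6, against 255 and 163. The summed level of the secretory markers, without Scgb1a1 on replicate 5, did not split these arrays, at 709, 398 and 1155, against 529 and 350. Their mean log2 level did, at 7.17, 5.56 and 9.17, against 3.75 and 3.94, again without Scgb1a1 on replicate 5. The part of these levels in this result was not tested. On replicate 1 the mitosis genes were not low together, as Aurka (3.64), Plk4 (−1.20) and Nek2 (1.21) were the highest of the injured Myd88KO arrays there while Foxm1 (−1.88) and Ube2c (−0.14) were the second lowest. The 4 ciliated cell markers summed to 59.4 on that array, the highest of injured Myd88KO. They also split this group as the replication genes did, at 59.4, 15.5 and 18.9 on replicates 1, 3 and 5, against 5.34 and 1.66 on 2 and 4. Their part in either pattern was not tested. Among 13 CDK inhibitor and quiescence genes none was called in wild-type, and 5 had an unadjusted p under 0.05, beside 27.9% of all genes. Their median was 0.02, or 0.07 without the 2 arrays. The largest in either direction were Cdkn2d at 0.56 and Ccng1 at −0.60.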

How the data were processed

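RNA of 20 whole tracheas was hybridised to 1-colour Agilent arrays, 5 per group. The authors deposited spot intensity values from Agilent Feature Extraction, background-subtracted and detrended within each array but not scaled between arrays. The processed signals were taken as log2, outlier spots were left out, spots of a probe were averaged, and each array's 75th percentile over probes was subtracted. The 26064 probes well above background on at least 10 of 20 arrays were tested with limma 3.58.1 in R 4.3.3 on all 20 arrays, with Benjamini-Hochberg adjustment in each comparison and a threshold of 0.01, after the study's presence filter and threshold. The script was tested on simulated data. Gene names came from the probe's accession for 22951 probes and from a current or older symbol for 6659 and 3109, while 8455 could not be matched to RefSeq. The number of arrays limits the precision.

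Values on every array are given for 16 genes set by role, for the 2 genes with the largest difference in each direction in each comparison, and for genes with 1 probe called and another of opposite sign or an unadjusted p over 0.05. From other lists the 2 largest called genes are named. The members, lists and rules were chosen with earlier results of these data known. The labels number the samples but do not say that each is a separate mouse, while the study's methods describe 5 biological replicates per group. The p-values measure the spread between these samples. Replicate numbers mark the slide, by the file headers, and slide is treated as a batch. Correlations of same-numbered deviations from the group means ran from −0.03 to 0.39 for injury in wild-type, 0.00 to 0.46 for injury in Myd88KO, 0.25 to 0.48 between uninjured and −0.22 to 0.33 between injured genotypes. Values with slide as a block stand beside the calls it changes. The alternatives were other scalings (median, quantile, normexp), the deposited value table, filters on dim probes, slide and scan day as blocks, array weights, other tests and leaving out arrays. The labels and the study's methods give different amounts of input RNA.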

Additional observations from a re-analysis of the deposited data

Results flagged for a closer look

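Within groups, an array was noted where its gap to the nearest other array exceeded 0.71 of the group's range, Dixon's limit for 5 samples, which chance passes in about 1 in 20 groups. Uninjured wild-type replicate 3 stood apart for Bub1b at −0.72, and injured Myd88KO replicate 5 for the mean of the mitosis and spindle genes at −1.83, for Top2a at −3.82 and for Cdk1 at −3.13. For the mean of these genes, uninjured wild-type replicate 3 had a ratio of 0.688 and did not pass the limit. Over all 45 genes and 4 groups, 11 of 180 groups passed this limit, with uninjured wild-type replicate 3 in 6, injured Myd88KO replicate 5 in 4 and uninjured Myd88KO replicate 5 in 1. The untested probes of Ttk and Hmmr gave signal well above background on injured arrays, Ttk on 5 of 10 (0 uninjured) and Hmmr on 7 of 10 (1 uninjured).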

How the results depend on the processing

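The median difference after injury kept its direction under every alternative run in both genotypes, while the number of genes called varied. Shares over all genes were counted for the main fit and for the fit without both arrays that stand apart, not for the other alternatives. Counts under those other alternatives therefore cannot be set against all genes. For wild-type (29 called), 17 were called with a one-way test of only the 2 groups compared, which may differ from the study's own ANOVA. The count was 18 with the first scan day only and 0 with the second only (37 at an unadjusted p under 0.05). Leaving out 1 array gave 11 to 37, with 14, 11, 11 and 19 without uninjured wild-type replicates 1, 2, 4 and 5, and 17, 16 and 15 without injured wild-type replicates 1, 2 and 3. With normexp background correction the wild-type median was 1.66. For Myd88KO (5 called), the count was 11 with slide as a random block, 8 with scan day as a block, 44 with array weights, 27 at an adjusted p under 0.05 and 0 with only the 2 groups compared or with the one-way test (45 and 40 at an unadjusted p under 0.05). It was 38 with the first scan day only and 0 with the second only (2 unadjusted), with medians of 2.78 and 0.54, and 43 without both arrays that stand apart. Leaving out 1 array gave 0 to 43 (0 without any 1 uninjured Myd88KO array or without injured Myd88KO replicate 2, 3 or 4, 3 without replicate 1, and 43 without replicate 5). On the second scan day alone 1 gene was called between injured genotypes and the interaction median was −1.54. Over all alternatives the genotype medians ran from −0.77 to 0.0368 in uninjured and from −1.40 to −0.0936 in injured tracheas, and the interaction median from −1.54 to 0.410. Between injured genotypes, leaving out 1 array gave −0.125 to 0.584 for Nek2 and −0.0723 to 0.578 for Plk4. With the replicate number, which is the slide, as a fixed block, 29 and 5 genes were called, of which 26 and 4 were the same genes as without it, and it changed no call in the genotype or interaction comparisons (0, 0 and 0). Same-numbered samples correlated best with each other for 1 of 5 pairs in wild-type and 3 of 5 in Myd88KO. The causes of these shifts were not tested. Scan day fits rest on 3 or 2 arrays a group and were added after seeing the data. Ttk, Hmmr and genes near background before injury have differences that dim signals limit.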
